A study of Homo sapiens with 27 samples.

Results

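The 10 genes described here belong to the BCL2 family, which sets the threshold for programmed cell death at the mitochondrion. They are 4 survival genes (BCL2, BCL2L1, MCL1 and BCL2A1) and 6 genes for BH3-only death proteins (BCL2L11, BMF, BBC3, PMAIP1, BIK and HRK). They were taken by gene symbol from the deposited RNA-seq table, in which each of the 10 had 1 row, and they are 10 of 36536 genes after rows with the same symbol were summed. The cells were MCF10A, a widely used line of human breast epithelium that does not form tumours, so every library comes from a single line. All groups had been grown with 20 ng/ml EGF (epidermal growth factor), horse serum, hydrocortisone, cholera toxin and insulin, and had then spent 18 h in medium free of growth factors on collagen-1. The T0 group has no treatment and is labelled 0 h. The other groups were collected 24 h after fresh growth factor-free medium with PBS (saline, the control), EGF, OSM (oncostatin M, a cytokine of the interleukin-6 family), TGFB (transforming growth factor beta), EGF+OSM, EGF+TGFB, OSM+TGFB or EGF+OSM+TGFB was given, with each ligand at 10 ng/ml. Each of the 9 groups had 3 libraries of polyadenylated RNA, 27 in all. The labels number the replicates without saying whether they were separate cultures, so the p-values measure the spread between these libraries, which may be technical. The study asks whether combined signals act as the sum of the single ones.

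Proteins of this family meet at the outer mitochondrial membrane. The survival proteins hold the pore-forming members BAX and BAK1 in check, and the BH3-only proteins, which share with them only the short BH3 segment, bind the survival proteins and set BAX and BAK1 free or activate them directly, after which cytochrome c leaves the mitochondrion and caspases are activated. In mammary epithelial cells, MCF10A among them, BIM (the product of BCL2L11) and BMF are known for their part in the death of cells that have lost attachment and in the clearing of the lumen of acini, and signalling from EGF through ERK is known to hold BIM low.

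Library totals ran from 30143162 to 52947078 counts, with a median of 39530985, and levels are given as counts-per-million (CPM), scaled by edgeR's TMM factors. In every library all 8 epithelial markers examined were detected, from KRT5, between 3313 and 9188 CPM, to EPCAM, the lowest, between 2.72 and 18.6 CPM. Of 8 markers of leukocytes, endothelium and stroma, CDH5 was at 0 in 18 libraries and CD3E in 15, and PTPRC did not pass 0.225 CPM. VWF ran from 0 to 3.52 CPM. PECAM1 (0.122 to 2.06 CPM) and PDGFRB (0.0940 to 1.04 CPM) were low but in no library at 0. CD68 (20.2 to 50.4 CPM) and DCN (7.42 to 103 CPM) were present throughout. The summed level of these 8 markers was 119 to 126 CPM in PBS, 106 to 124 CPM in OSM and 31.1 to 36.6 CPM in EGF. The fall with EGF was mostly that of 1 gene, DCN, with means of 91.6 CPM in PBS and 11.3 CPM in EGF. CD68 went from 27.2 to 21.9 CPM. The part of these markers in the results below was not tested. Mitochondrial transcripts took 2.85% to 3.06% of counts in PBS and 1.23% to 1.44% with all 3 ligands. Each of the 27 libraries was closest to one of its own group. OSM replicate 3 lay apart from the other OSM libraries on the leading principal component (21.4 against 7.43 and 1.21), so values without it are given where they matter. It was not alone, as OSM+TGFB replicate 3 was shifted the same way (19.05 against 9.25 and 7.16). On the second component, replicate 3 was the lowest library of every group. The gap was wide in some groups (EGF+TGFB, -1.08 against 12.2 and 13.3) and narrow in others (PBS, -12.1 against -10.7 and -11.1). Values without OSM replicate 3 keep the other libraries of that number in. In bulk RNA a smaller number of expressing cells and less RNA per cell cannot be told apart.

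The upstream sequences of 4 members are shown first, because BCL2L11, BBC3 and BCL2A1 each hold 1 of the motifs searched and BMF, the gene with the widest range of levels, holds none. RefSeq (build GRCh38.p14) gave a promoter entry for 8 of the 10 genes (all but BIK and MCL1), with 10 start sites, and the 250 bases before each start were searched on both strands for 8 motifs. The motifs were forkhead (GTAAACA), STAT (TTCNNNGAA), AP-1 (TGANTCA), ETS (CCGGAAGT), SMAD (GTCTAGAC), CRE (TGACGTCA), E2F (TTTCCCGC or TTTGGCGC) and the NF-kB site. Matches are in capitals, and bases that lie in an exon of the same gene in GENCODE v44 are left out. The BCL2L11 window lies inside the gene, in an intron of its longer transcripts, and the other 3 lie directly before the gene.
BCL2L11, chr2:111120664-111120913, plus strand: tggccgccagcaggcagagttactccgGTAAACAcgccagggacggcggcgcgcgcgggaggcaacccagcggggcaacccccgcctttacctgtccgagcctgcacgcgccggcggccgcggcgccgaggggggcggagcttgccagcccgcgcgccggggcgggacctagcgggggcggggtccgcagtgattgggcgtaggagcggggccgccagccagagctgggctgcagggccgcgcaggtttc
BMF, chr15:40108893-40109129, minus strand: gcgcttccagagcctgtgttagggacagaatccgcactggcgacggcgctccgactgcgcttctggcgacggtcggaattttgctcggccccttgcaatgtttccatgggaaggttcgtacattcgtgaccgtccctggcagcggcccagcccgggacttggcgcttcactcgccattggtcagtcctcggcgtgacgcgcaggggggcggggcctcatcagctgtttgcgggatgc
BBC3, chr19:47232767-47232917, minus strand: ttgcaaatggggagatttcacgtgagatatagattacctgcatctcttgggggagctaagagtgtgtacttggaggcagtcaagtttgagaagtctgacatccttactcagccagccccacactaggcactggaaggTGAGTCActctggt
BCL2A1, chr15:79971197-79971446, minus strand: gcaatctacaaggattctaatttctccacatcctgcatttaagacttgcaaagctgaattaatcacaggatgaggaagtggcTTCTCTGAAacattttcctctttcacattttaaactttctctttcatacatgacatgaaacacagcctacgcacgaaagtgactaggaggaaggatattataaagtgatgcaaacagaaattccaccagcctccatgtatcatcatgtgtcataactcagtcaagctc
Of the 10 windows, 3 held a match. BCL2L11 had the forkhead letters 223 to 217 bases before its start, BBC3 an AP-1 match 113 to 107 bases before, and BCL2A1 a STAT match 168 to 160 bases before. Over 35116 promoters of the same length, the forkhead letters occurred in 2.98%, the AP-1 letters in 6.57% and the STAT letters in 6.57%. Those of ETS occurred in 3.42%, E2F in 1.93%, CRE in 1.65%, NF-kB in 0.957% and SMAD in 0.182%. The share of promoters with any of the 8 motifs was not counted, so 3 of 10 windows is not read as a result. No window held more than 1 match. The BCL2L11 window was 76.8% G or C and the BCL2A1 window 38.8%. A match describes letters and is not a binding site.

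EGF lowered both of the BH3-only genes best known in this tissue, BMF and BCL2L11. OSM lowered BMF, and its difference for BCL2L11 did not pass the test. BMF (ENSG00000104081, chromosome 15, 40087890 to 40108892, minus strand; all gene spans are those of GENCODE v44 on GRCh38, introns included) encodes a BH3-only protein held by dynein light chain in attached cells. Its level was 109, 118 and 122 CPM in the 3 PBS libraries, 3.56, 5.43 and 2.78 CPM in EGF and 14.5, 18.2 and 10.3 CPM in OSM. The 3 groups did not overlap, and OSM lay between PBS and EGF. Against PBS the log2 fold change was -4.87 ± 0.24 with EGF, or 29.3-fold lower (± SE here and below; adjusted p = 2.03e-13, edgeR's quasi-likelihood test, Benjamini-Hochberg over 15575 genes), and -3.01 ± 0.21 with OSM (adjusted p = 8.08e-11). With EGF and OSM together BMF fell further, to 1.57, 1.30 and 0.986 CPM, below every library of either single ligand, a change of -1.63 ± 0.35 from EGF alone (adjusted p = 0.00111). In TGFB libraries it stood at 144, 156 and 149 CPM, above all 3 PBS libraries, though this difference of 0.36 ± 0.18 did not pass the test (adjusted p = 0.14).

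TGFB raised BMF where OSM was present. In OSM+TGFB the level was 62.7, 64.2 and 44.9 CPM, above all OSM libraries and below all PBS libraries. Adding TGFB to OSM raised BMF by 1.99 ± 0.21 on the log2 scale (adjusted p = 9.4e-08), and adding it to EGF+OSM raised it by 2.03 ± 0.35 (adjusted p = 3.93e-05), to 4.97, 7.28 and 3.67 CPM. Added to EGF alone, TGFB left BMF at 4.07, 3.32 and 2.26 CPM, overlapping the EGF libraries, with a difference of -0.28 ± 0.30 (adjusted p = 0.453). From the highest group mean to the lowest, the order was TGFB 149.5, PBS 116, T0 70.8, OSM+TGFB 57.3, OSM 14.3, EGF+OSM+TGFB 5.31, EGF 3.92, EGF+TGFB 3.22 and EGF+OSM 1.29 CPM. T0 and OSM+TGFB overlapped in that order, as did the 3 groups from EGF+OSM+TGFB to EGF+TGFB. The highest mean was 116 times the lowest, the widest ratio of the 10 genes.

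BCL2L11 (ENSG00000153094, chromosome 2, 111119378 to 111168444, plus strand) encodes BIM, which binds all the survival proteins and can activate BAX directly. Its level fell from 89.0, 90.5 and 81.6 CPM in PBS to 20.1, 22.0 and 19.6 CPM in EGF, a log2 fold change of -2.08 ± 0.13 (adjusted p = 3.84e-12). The OSM libraries, at 81.7, 94.9 and 65.1 CPM, overlapped PBS, and the difference of -0.11 ± 0.12 did not pass the test (adjusted p = 0.455). OSM replicate 3 is the lowest of them, and without it the difference was 0.02. PBS replicate 3, at 81.6 CPM, is likewise the lowest of PBS and stayed in that fit. All 12 libraries with EGF lay below all 15 without it. TGFB alone left the gene at 96.8, 99.8 and 92.3 CPM (0.15 ± 0.12, adjusted p = 0.396).

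On top of EGF, TGFB lowered BCL2L11 further, to 13.3, 14.3 and 12.5 CPM in EGF+TGFB, a log2 fold change of -0.61 ± 0.14 (adjusted p = 0.000851). On top of EGF+OSM the difference was -0.63 ± 0.14 (adjusted p = 0.000459), from 25.1, 25.5 and 27.6 CPM to 16.9, 19.6 and 14.2 CPM. Without EGF the sign was the other: OSM+TGFB, at 109, 117 and 80.2 CPM, was 0.34 ± 0.12 above OSM (adjusted p = 0.026). That call was lost without OSM replicate 3 (0.21, adjusted p = 0.171). It was also lost without OSM replicate 1, OSM+TGFB replicate 1 or 2, and when low genes were kept. By replicate number, OSM+TGFB was above OSM each time (109 against 81.7, 117 against 94.9 and 80.2 against 65.1 CPM). What a number marks is not stated in the labels. The highest group means were OSM+TGFB (102), TGFB (96.3), PBS (87.0), OSM (80.6) and T0 (79.1 CPM), in which each neighbouring pair but TGFB and PBS overlapped. The groups with EGF followed at 26.1, 20.6, 16.9 and 13.4 CPM for EGF+OSM, EGF, EGF+OSM+TGFB and EGF+TGFB, and only the last 2 overlapped.

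**Figure D1:**
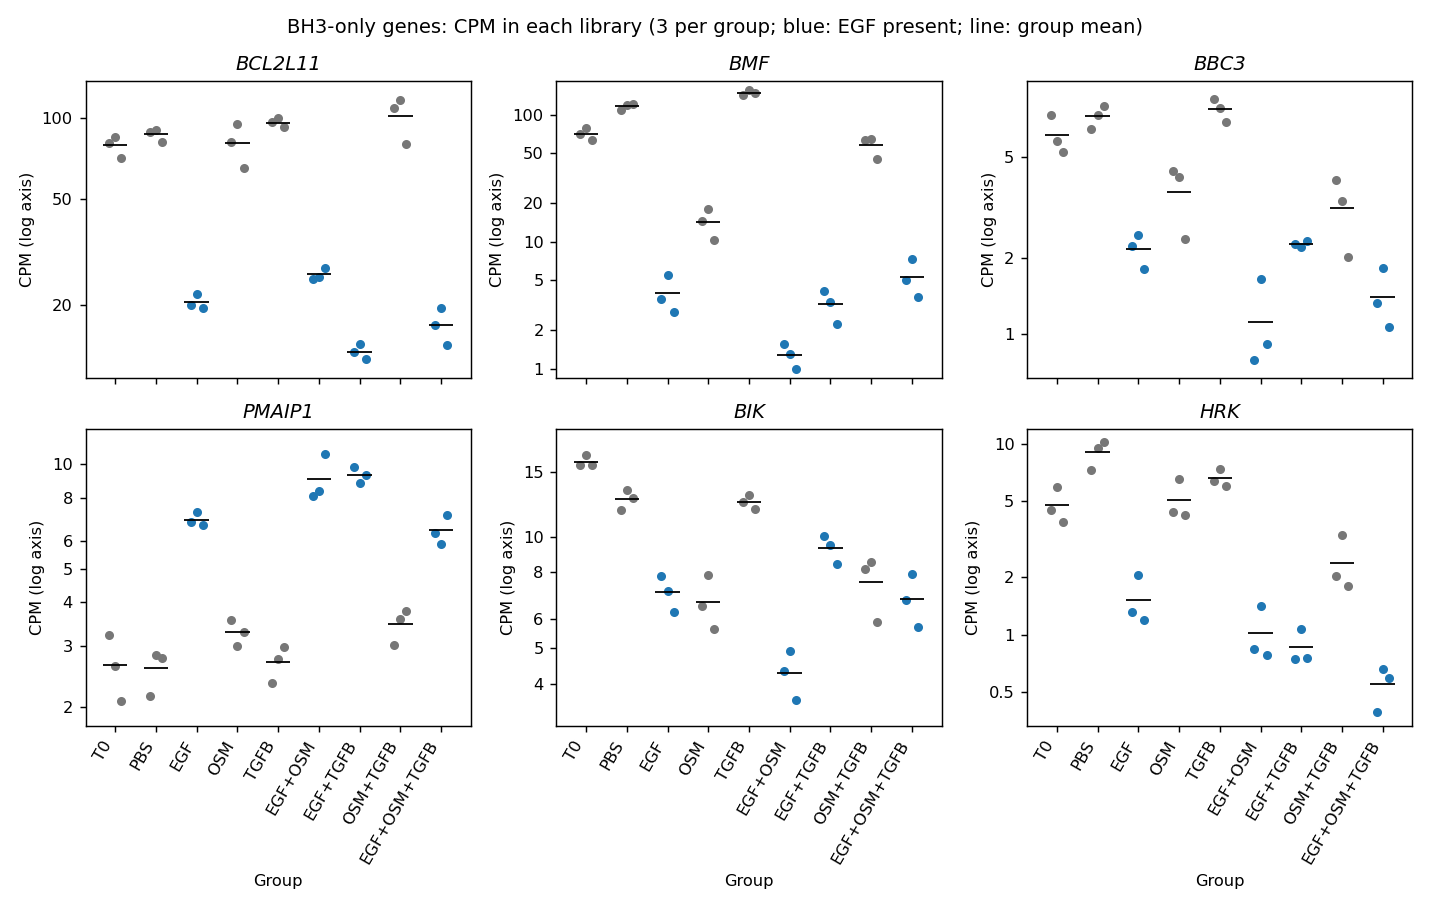
Levels of the 6 BH3-only genes in CPM (log axes) in each of the 27 libraries, by group; points are libraries, blue where EGF was given, and the line is the group mean. BCL2L11 splits into libraries with EGF (12.5 to 27.6 CPM) and without (65.1 to 117 CPM), BMF is also low in OSM, and PMAIP1 is the only one of the 6 that is high with EGF.

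BBC3 (ENSG00000105327, chromosome 19, 47220822 to 47232766, minus strand), which encodes PUMA and is a known target of p53, was lower with EGF, with OSM and with their combination. Its level was 6.43, 7.31 and 7.89 CPM in PBS, 2.23, 2.46 and 1.81 CPM in EGF, 4.38, 4.17 and 2.38 CPM in OSM and 0.785, 1.65 and 0.910 CPM in EGF+OSM. EGF, OSM and their combination gave no library as high as the lowest of PBS. The log2 fold change was -1.73 ± 0.24 with EGF (adjusted p = 6.12e-07), -0.98 ± 0.23 with OSM (adjusted p = 0.000738) and -2.67 ± 0.26 with both (adjusted p = 1.29e-09). OSM replicate 3 had the lowest of the OSM values, and without it the OSM difference was -0.75 (adjusted p = 0.00782). TGFB did not change BBC3 beyond the test in any background: the values were 0.09 ± 0.22 alone, 0.06 ± 0.26 on EGF, -0.22 ± 0.25 on OSM and 0.30 ± 0.30 on EGF+OSM (adjusted p from 0.407 to 0.868). Group means ran from 7.70 CPM in TGFB, 7.21 in PBS and 6.09 in T0, which overlapped, through OSM (3.64), OSM+TGFB (3.13), EGF+TGFB (2.26), EGF (2.16) and EGF+OSM+TGFB (1.40) to EGF+OSM (1.12 CPM), each of which overlapped its neighbour.

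HRK (ENSG00000135116, chromosome 12, 116856144 to 116881441, minus strand), a BH3-only gene named harakiri and known chiefly from neurons, fell most with all 3 ligands. Its level was 7.33, 9.58 and 10.2 CPM in PBS, 1.31, 2.06 and 1.20 CPM in EGF, 4.38, 6.59 and 4.27 CPM in OSM, 6.37, 7.42 and 6.03 CPM in TGFB and 0.391, 0.662 and 0.596 CPM with the 3 ligands. EGF and OSM libraries lay wholly below PBS, and TGFB libraries overlapped PBS by 1 value. The log2 fold changes were -2.56 ± 0.25 with EGF (adjusted p = 1.81e-09), -0.83 ± 0.23 with OSM (adjusted p = 0.00314), -0.45 ± 0.23 with TGFB (adjusted p = 0.131) and -4.07 ± 0.30 with all 3 (adjusted p = 6.43e-12). TGFB lowered HRK on each of the other backgrounds, with log2 fold changes of -0.81 ± 0.30 on EGF (adjusted p = 0.0246), -1.10 ± 0.25 on OSM (adjusted p = 0.000681) and -0.92 ± 0.35 on EGF+OSM (adjusted p = 0.0256). The call on EGF was lost without EGF replicate 2 (adjusted p = 0.19), without EGF+TGFB replicate 1 or 3 and when low genes were kept, and that on EGF+OSM without EGF+OSM replicate 2 (adjusted p = 0.198) or EGF+OSM+TGFB replicate 1. The other group means were 4.78 CPM in T0, 2.39 in OSM+TGFB, 1.01 in EGF+OSM and 0.857 CPM in EGF+TGFB. In the order from PBS down, T0 and OSM+TGFB did not overlap, nor did EGF+TGFB and the group with 3 ligands, while the other neighbours did.

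BIK (ENSG00000100290, chromosome 22, 43110750 to 43129712, plus strand), which encodes a BH3-only protein found largely at the endoplasmic reticulum, fell with EGF and with OSM. The libraries read 11.8, 13.4 and 12.8 CPM in PBS, 7.81, 7.15 and 6.24 CPM in EGF, 6.49, 7.88 and 5.62 CPM in OSM and 4.33, 4.89 and 3.62 CPM in EGF+OSM. PBS did not overlap the other 3, and EGF and OSM overlapped each other. The changes were -0.84 ± 0.13 with EGF (adjusted p = 3.4e-06), -0.92 ± 0.14 with OSM (adjusted p = 1.47e-06) and -1.56 ± 0.14 with both (adjusted p = 1.55e-10), and OSM against EGF gave -0.08 ± 0.14 (adjusted p = 0.643). TGFB made no called difference alone (-0.03 ± 0.13, adjusted p = 0.906), and raised BIK by 0.40 ± 0.14 on EGF and 0.66 ± 0.15 on EGF+OSM (adjusted p = 0.0144 and 0.000345), the former lost without EGF replicate 3 or EGF+TGFB replicate 1 (adjusted p = 0.0813 and 0.0658). Its highest mean was in T0, at 16.0 CPM, above 12.7 in PBS and 12.5 in TGFB, and then came EGF+TGFB (9.32), OSM+TGFB (7.52), EGF (7.07), EGF+OSM+TGFB (6.79), OSM (6.66) and EGF+OSM (4.28 CPM). PBS overlapped TGFB, and the 5 groups from EGF+TGFB to OSM overlapped each with the next.

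PMAIP1 (ENSG00000141682, chromosome 18, 59899996 to 59904305, plus strand), which encodes NOXA, a partner of the MCL1 and BCL2A1 proteins, was the only one of the 6 BH3-only genes that rose with EGF. It stood at 2.15, 2.83 and 2.76 CPM in PBS and 6.79, 7.26 and 6.66 CPM in EGF, a log2 fold change of 1.42 ± 0.15 (adjusted p = 2.78e-09). All 12 libraries with EGF lay above all 15 without it, 5.89 CPM or more against 3.78 CPM or less. OSM gave 3.56, 2.995 and 3.29 CPM, wholly above PBS, but the difference of 0.34 ± 0.15 just missed the threshold (adjusted p = 0.0552), and passed it when one of 5 libraries was left out (PBS or OSM replicate 2, T0 replicate 1 or 3, or EGF+OSM replicate 3). TGFB raised PMAIP1 on EGF, by 0.43 ± 0.14 (adjusted p = 0.00908), and lowered it on EGF+OSM (-0.49 ± 0.14, adjusted p = 0.0031). The 4 groups with EGF had means of 9.30 (EGF+TGFB), 9.06 (EGF+OSM), 6.90 (EGF) and 6.44 CPM (EGF+OSM+TGFB), with overlap between the first 2 and between the last 2. The others had 3.46 (OSM+TGFB), 3.28 (OSM), 2.69 (TGFB), 2.64 (T0) and 2.58 CPM (PBS), where all neighbours but OSM and TGFB overlapped.

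Among the survival genes, BCL2 (ENSG00000171791, chromosome 18, 63123346 to 63320128, minus strand), the founding member of the family, rose most with EGF, from few counts in PBS. PBS libraries held 9, 8 and 9 counts (0.225, 0.173 and 0.220 CPM), EGF libraries 190, 247 and 192 (4.23, 4.93 and 4.68 CPM) and OSM libraries 36, 44 and 62 (1.03, 0.976 and 1.67 CPM). These 3 groups did not overlap. The log2 fold change was 4.47 ± 0.28 with EGF, or 22.2-fold (adjusted p = 2e-13), and 2.56 ± 0.30 with OSM (adjusted p = 4.15e-08), or 2.27 without OSM replicate 3, the highest of its group. PBS was the only group in which BCL2 lay under the level asked of a tested gene (0.253 CPM in 3 libraries), so every fold over PBS rests on few counts. TGFB alone gave 16, 17 and 15 counts and a change of 1.00 ± 0.34 (adjusted p = 0.0249), a call that ended when PBS replicate 2 or any single TGFB library was left out (adjusted p from 0.0509 to 0.095).

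TGFB had the opposite sign on BCL2 once another ligand was present. It lowered BCL2 with log2 fold changes of -0.92 ± 0.21 on EGF (adjusted p = 0.000548), -1.21 ± 0.27 on OSM (adjusted p = 0.000438) and -1.88 ± 0.22 on EGF+OSM (adjusted p = 5.03e-08). The libraries read 2.48, 1.84 and 3.05 CPM in EGF+TGFB, 0.337, 0.546 and 0.697 CPM in OSM+TGFB, 5.47, 4.73 and 6.22 CPM in EGF+OSM and 1.69, 1.12 and 1.63 CPM with the 3 ligands. In each of these pairs the libraries with TGFB lay wholly below those without. Group means ran from EGF+OSM (5.47) and EGF (4.61), which overlapped, through EGF+TGFB (2.46), EGF+OSM+TGFB (1.48) and OSM (1.23), of which the last 2 overlapped, to T0 (0.553), OSM+TGFB (0.527), TGFB (0.412) and PBS (0.206 CPM), in which T0 overlapped OSM+TGFB and OSM+TGFB overlapped TGFB.

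BCL2L1 (ENSG00000171552, chromosome 20, 31664452 to 31723989, minus strand), which encodes BCL-XL and, by splicing, the death-promoting short form that gene-level counts cannot separate, rose with EGF and fell with OSM. It stood at 68.1, 83.0 and 74.1 CPM in PBS, 93.7, 103 and 99.6 CPM in EGF and 58.1, 60.3 and 61.3 CPM in OSM, with no overlap. The changes were 0.40 ± 0.06 with EGF (adjusted p = 3.57e-06) and -0.33 ± 0.06 with OSM (adjusted p = 7.84e-05), each under 2-fold. TGFB alone made no called difference (-0.01 ± 0.06, adjusted p = 0.931), yet on EGF it raised BCL2L1 by 0.42 ± 0.06, to 128, 140 and 128 CPM, and on OSM by 0.40 ± 0.06, to 75.9, 77.2 and 84.6 CPM (adjusted p = 3.08e-06 and 7.91e-06). The 2 groups with both EGF and TGFB had the highest means, 132 CPM in EGF+TGFB and 132 CPM with the 3 ligands, and overlapped. EGF+OSM (108) and EGF (98.8) followed without overlap, then OSM+TGFB (79.3), PBS (75.0) and TGFB (74.6), which overlapped, and T0 (60.7) and OSM (59.9 CPM), which overlapped as well.

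MCL1 (ENSG00000143384, chromosome 1, 150560895 to 150579738, minus strand) encodes a short-lived survival protein. All 7 treatments raised it. It stood at 524, 522 and 488 CPM in PBS, 847, 780.2 and 816 CPM in EGF, 702, 655 and 807 CPM in OSM and 1072, 1036 and 1102 CPM in EGF+OSM. PBS lay below the other 3, and EGF+OSM lay above both single ligands. The changes were 0.67 ± 0.06 with EGF, 0.50 ± 0.06 with OSM and 1.07 ± 0.06 with both (adjusted p = 5.82e-10, 1.77e-07 and 5.41e-14). TGFB raised it slightly, by 0.21 ± 0.06, to 579, 613 and 580.3 CPM (adjusted p = 0.0111, lost without PBS replicate 3 at 0.0635 and without TGFB replicate 2 at 0.0561). On EGF and on EGF+OSM it lowered MCL1, with log2 fold changes of -0.29 ± 0.06 and -0.42 ± 0.06 (adjusted p = 0.000336 and 2.32e-06). Below EGF+OSM (1070) the means were EGF 815, EGF+OSM+TGFB 799, OSM+TGFB 754, OSM 721, EGF+TGFB 666, TGFB 591, PBS 511 and T0 432 CPM. Overlap was seen between EGF and the group with 3 ligands, between OSM+TGFB and OSM, and between OSM and EGF+TGFB.

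BCL2A1 (ENSG00000140379, chromosome 15, 79960892 to 79971196, minus strand), a survival gene known chiefly from blood cells and as a target of NF-kB, was barely expressed. PBS libraries held 3, 2 and 1 counts, T0 libraries 0, 1 and 0, OSM libraries 17, 40 and 22, EGF libraries 7, 14 and 5 and EGF+TGFB libraries 14, 22 and 14. OSM was the highest group. In counts it overlapped EGF+TGFB, and in CPM its lowest library (0.484) lay barely above the highest of EGF+TGFB (0.480). Summed over the group and scaled for depth, the ratio of OSM to PBS was 14.3 (95% exact interval 6.28 to 40.1), that of EGF 4.05 (1.63 to 12.0) and that of EGF+TGFB 9.23 (3.95 to 26.3), intervals that cover counting error only. Only OSM and EGF+TGFB had 3 libraries at the level asked of a tested gene, so the gene entered the tests through groups where it was high. Its calls after that filter are therefore no independent support. The fitted changes of so low a gene also depend on the prior count. When all genes with a count were kept, so that no group admitted it, the change with OSM was 3.70 (adjusted p = 8.03e-07), and adding EGF to OSM lowered it (-1.86, adjusted p = 0.00197), to 7, 9 and 5 counts. The remaining groups held 3, 7 and 3 counts in TGFB, 10, 13 and 11 in OSM+TGFB and 12, 4 and 15 with all 3 ligands.

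**Figure D2:**
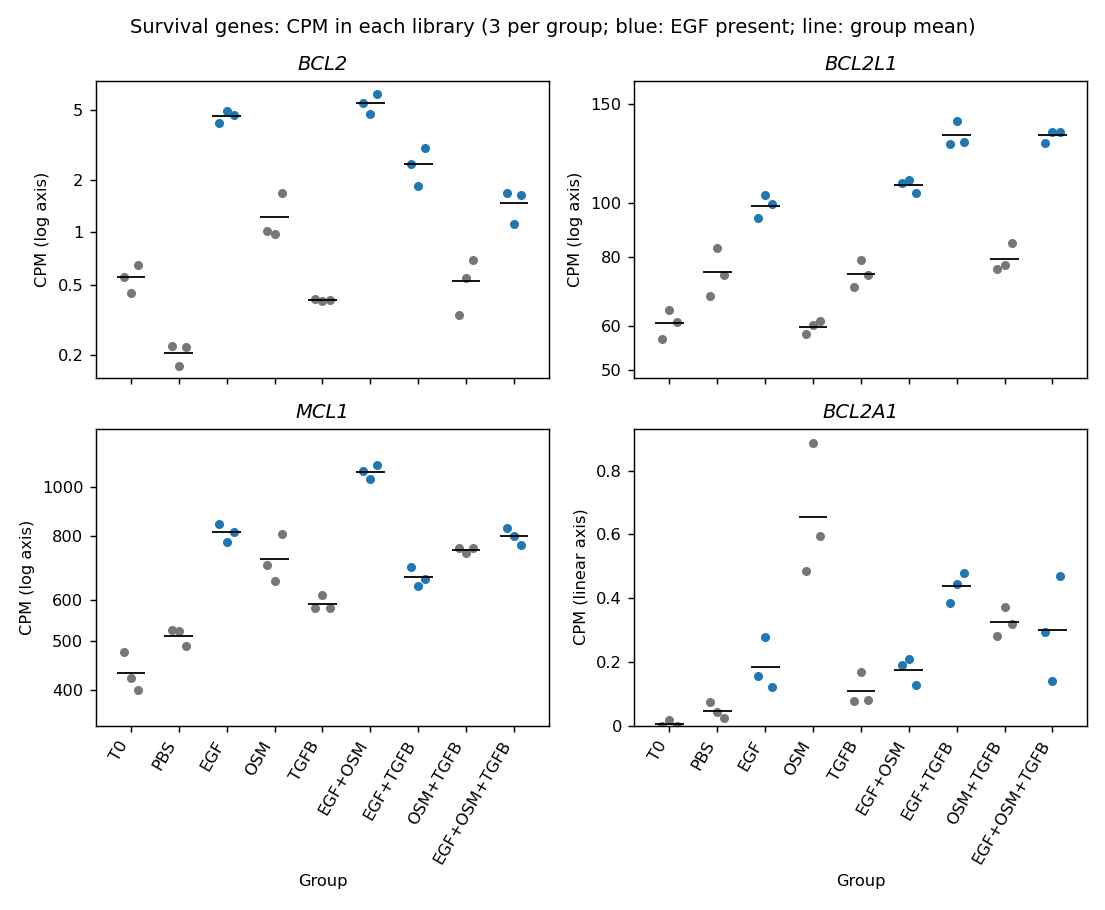
Levels of the 4 survival genes in CPM in each of the 27 libraries, by group (log axes, but linear for BCL2A1); points are libraries, blue where EGF was given, and the line is the group mean. BCL2 is lowest in PBS (0.206 CPM on average) and highest in EGF+OSM (5.47 CPM), the group means of MCL1 run from 432 to 1070 CPM, and the highest mean of BCL2A1 is that of OSM, at 0.655 CPM.

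Set against PBS, EGF raised the 4 survival genes and lowered 5 of the 6 BH3-only genes. All 10 were called with EGF, where 73.5% of all genes tested were: the 4 survival genes and PMAIP1 rose (34.9% of all genes did) and the other 5 BH3-only genes fell (38.6%). With that background the count itself says little about the family, and BCL2A1 is among the counts here and below although the groups where it was high brought it into the tests. At a limit of 2-fold or more, 7 of the 10 passed, against 27.5% of all genes, namely BCL2, BCL2A1 and PMAIP1 upward and BCL2L11, BMF, BBC3 and HRK downward. OSM called 8 of 10, against 63.4% of all genes, with BCL2, MCL1 and BCL2A1 higher (33.5% of all genes), BCL2L1, BMF, BBC3, BIK and HRK lower (29.8%), and BCL2L11 and PMAIP1 not called. At 2-fold, OSM left 3 (20.1% of all genes): BCL2, BCL2A1 and BMF. TGFB called 2 of 10, BCL2 and MCL1, both higher, against 35.6% of all genes (19.9% higher and 15.8% lower), and 0 at 2-fold by edgeR (5.80% of all genes), with 0 also at an unadjusted p under 0.05 and 0 by DESeq2. The median log2 fold change over the 10 genes was -0.22 with EGF, -0.22 with OSM and 0.12 with TGFB, beside -0.07, 0.00 and -0.01 over all genes tested.

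The combinations with EGF kept the directions seen with EGF alone. EGF+OSM, EGF+TGFB and EGF+OSM+TGFB each called all 10, the same 5 upward and the same 5 downward as EGF, against 77.2%, 73.7% and 74.4% of all genes. Of all genes, 37.6%, 36.2% and 37.7% were higher and 39.6%, 37.5% and 36.7% lower in these 3 comparisons. OSM+TGFB called 8 of 10 against 66.0% (34.2% higher and 31.8% lower): BCL2, MCL1, BCL2A1 and PMAIP1 were higher, BMF, BBC3, BIK and HRK lower, and BCL2L1 and BCL2L11 not called (0.08 ± 0.06 and 0.23 ± 0.12, adjusted p = 0.288 and 0.109). With upper-quartile scaling the BCL2L1 value was -0.01. BCL2L1 passed without PBS replicate 2 (adjusted p = 0.0358) and BCL2L11 without OSM+TGFB replicate 3 (adjusted p = 0.00615), while the rise of PMAIP1 (0.42 ± 0.15, adjusted p = 0.0195) was lost with upper-quartile scaling (adjusted p = 0.0595) and without PBS replicate 1 or OSM+TGFB replicate 2 or 3. All 7 treatments share the PBS libraries, so their values are given side by side and not as independent results. BMF had the most negative value of the 10 in 5 of the 7, from -6.50 ± 0.28 with EGF+OSM to -3.01 ± 0.21 with OSM, and HRK did in OSM+TGFB (-1.92 ± 0.25).

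**Figure D3:**
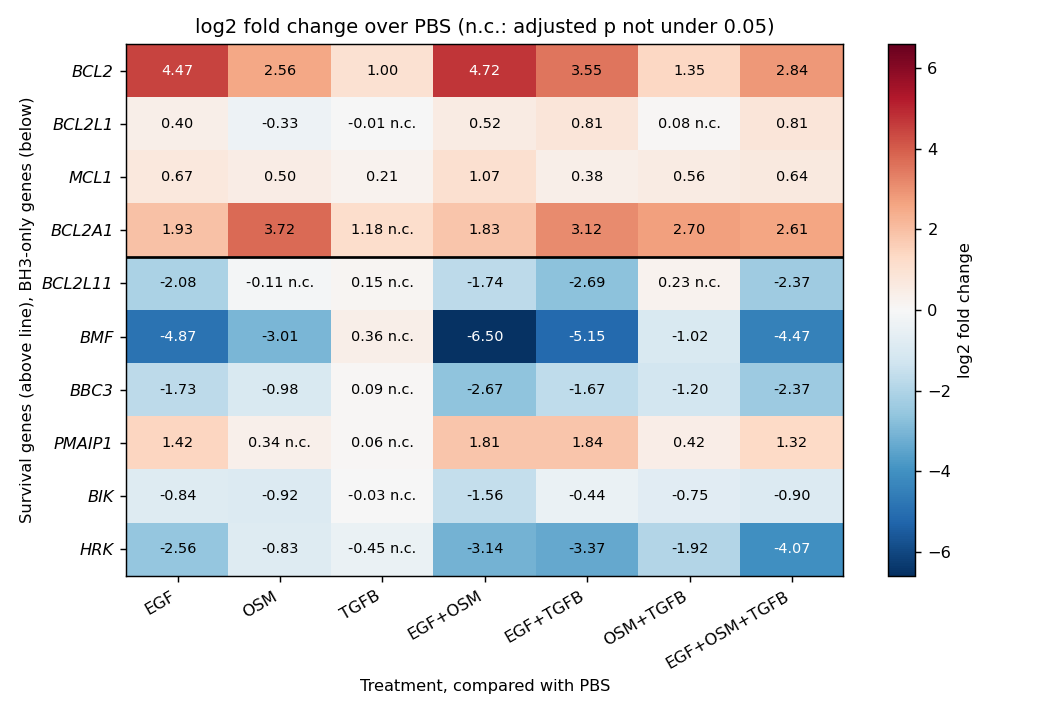
Log2 fold change over PBS of the 10 genes (rows; survival genes above the line, BH3-only genes below) for the 7 treatments (columns), red higher and blue lower; n.c. marks an adjusted p not under 0.05. Every column with EGF is red for the 4 survival genes and PMAIP1 and blue for the other 5, with BMF from -4.47 to -6.50, while the TGFB column has 8 values not called.

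Set directly against EGF, OSM left BCL2L11, BMF and HRK higher and BCL2, BCL2L1 and PMAIP1 lower. OSM against EGF called 9 of the 10, beside 56.8% of all genes. BCL2L11 was 1.97 ± 0.13 higher in OSM (adjusted p = 3.41e-11), BMF 1.86 ± 0.25 (adjusted p = 2.06e-06) and HRK 1.73 ± 0.26 (adjusted p = 2.89e-06). Lower in OSM than in EGF were BCL2 (-1.92 ± 0.22), PMAIP1 (-1.08 ± 0.14) and BCL2L1 (-0.72 ± 0.06; adjusted p = 6.13e-08, 5.9e-07 and 5.04e-10). BCL2A1 was 1.77 higher in OSM when low genes were kept (adjusted p = 0.00295). The calls of MCL1 (-0.18 ± 0.06) and BBC3 (0.75 ± 0.25; adjusted p = 0.0202 and 0.0123) had overlapping libraries and were lost when single EGF or OSM libraries were left out (adjusted p up to 0.161 for MCL1 and 0.0705 for BBC3). BIK did not pass.

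From T0 to PBS, a day in fresh medium without growth factors, the family moved less. Of the 10 genes 6 were called, beside 35.1% of all genes. BMF rose from 70.5, 78.7 and 63.2 CPM to 109, 118 and 122 CPM (0.72 ± 0.19, adjusted p = 0.00494) and HRK from 4.51, 5.93 and 3.89 CPM to 7.33, 9.58 and 10.2 CPM (0.92 ± 0.23, adjusted p = 0.00292). BCL2 fell from 0.554, 0.453 and 0.653 CPM to 0.225, 0.173 and 0.220 CPM (-1.41 ± 0.32, adjusted p = 0.00117), the only one of the 6 past 2-fold (5.52% of all genes were). For each of these 3 the PBS and T0 libraries did not overlap. BCL2L1 (0.31 ± 0.06) and MCL1 (0.24 ± 0.06) rose slightly, and BIK (-0.34 ± 0.13) fell (adjusted p = 0.000465, 0.00389 and 0.043). The BIK call ended when any 1 library of T0 or PBS was left out (adjusted p up to 0.142), without any 1 of 4 libraries of other groups, and when rows were tested as deposited. BCL2L11, BBC3, PMAIP1 and BCL2A1 did not pass. T0 and PBS differ in time and in the change of medium, which cannot be told apart.

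On the log2 scale, a pair of ligands departs from additivity when its change over PBS differs from the sum of the changes of its single ligands. EGF+OSM departed for 4 of the 10 genes, beside 38.7% of all genes. BCL2 fell short of the sum, with a departure of -2.31 ± 0.37 (adjusted p = 1.35e-05), and so did BCL2A1 (-3.82 ± 0.72, or -3.79 with low genes kept, adjusted p = 0.000293), each having risen with both ligands. BCL2L1, which the single ligands moved in opposite directions, exceeded the sum by 0.45 ± 0.09 (adjusted p = 0.000248). BMF fell less than the sum of its 2 large falls, by 1.38 ± 0.44 (adjusted p = 0.0169), a call lost without EGF+OSM replicate 1 or 2 (adjusted p = 0.0758 and 0.0504). BCL2L11, at 0.45 ± 0.18, just missed the threshold (adjusted p = 0.0555), and passed it in 10 of the alternatives, with DESeq2 at 0.0228 among them. BBC3, PMAIP1 and BIK departed by 0.04 ± 0.38, 0.05 ± 0.21 and 0.20 ± 0.20, none of them called (adjusted p = 0.95, 0.879 and 0.458).

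EGF+TGFB departed for 4 genes (29.8% of all genes) and OSM+TGFB for 4 (23.3%). For EGF+TGFB the values were -1.92 ± 0.40 for BCL2, -0.76 ± 0.19 for BCL2L11, -0.50 ± 0.09 for MCL1 and 0.43 ± 0.09 for BCL2L1 (adjusted p = 0.000738, 0.00409, 0.000152 and 0.000667). So BCL2L11 and the survival genes BCL2 and MCL1 lay below the additive level in EGF+TGFB, and BCL2L1 above it. For OSM+TGFB, BMF lay 1.63 ± 0.28 above the additive level (adjusted p = 0.00024), BCL2L1 0.41 ± 0.09 above (adjusted p = 0.00142) and BCL2 below it (-2.21 ± 0.44; adjusted p = 0.00057). BCL2A1 also departed (-2.20 ± 0.76, adjusted p = 0.0373), a call lost when low genes were kept (adjusted p = 0.0943) and without any of 6 single libraries (PBS replicate 2 or 3, OSM or TGFB replicate 2, or OSM+TGFB replicate 1 or 3). BCL2 and BCL2L1 were the only members called in all 3 departures, and the 3 share the PBS libraries, as well as the single-ligand libraries pairwise.

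EGF kept most of its directions when it was added to the other ligands. It called 10 of 10 on OSM (61.7% of all genes), 10 on TGFB (69.4%) and 7 on OSM+TGFB (52.2%). Of the calls on TGFB, that of MCL1 (0.17 ± 0.06) was lost with upper-quartile scaling (adjusted p = 0.124) and without TGFB replicate 1 or 3 or EGF+TGFB replicate 1, and that of BIK (-0.42 ± 0.13) without EGF+TGFB replicate 3 (adjusted p = 0.0671). Alone and in the 3 backgrounds together, EGF lowered BCL2L11, BMF, BBC3 and HRK and raised BCL2, BCL2L1 and PMAIP1 in 4 of 4, with BMF from -5.51 to -3.45 and BCL2L11 from -2.84 to -1.63. BCL2A1 was the exception, higher in 2 and lower in 1 (on OSM). OSM called 5 on EGF (34.9%), 7 on TGFB (56.6%) and 4 on EGF+TGFB (26.4%). The PMAIP1 call on TGFB (0.36 ± 0.15, adjusted p = 0.0483) was lost with DESeq2, other scalings, low genes kept and many single libraries left out. On EGF, PMAIP1 was lost without EGF replicate 1 or 3 or EGF+OSM replicate 3 (adjusted p up to 0.207). BBC3 on EGF was lost without EGF+OSM replicate 1 or 3, and BCL2 on EGF+TGFB without EGF+TGFB replicate 1 or 3 or EGF+OSM+TGFB replicate 2. MCL1 rose with OSM in 4 of 4 backgrounds (0.26 to 0.50) and BIK fell in 4 of 4 (-0.92 to -0.46; the call on EGF+TGFB was lost without EGF+TGFB replicate 1 or EGF+OSM+TGFB replicate 3), while BCL2L11 was called in none of the 4 (-0.11 to 0.34). On EGF that value of 0.34 had an adjusted p of 0.0535, and of 0.0267 with DESeq2, and the EGF+OSM libraries lay wholly above those of EGF. Over all alternatives its adjusted p ran from 0.0041 to 0.163. On EGF+TGFB (0.32 ± 0.15, adjusted p = 0.114) it ran from 0.0179 to 0.386, so an effect of OSM on BCL2L11 in these backgrounds is left undecided. TGFB called 8 on EGF (54.6%), 6 on OSM (51.6%) and 8 on EGF+OSM (61.1%), with BCL2L1 higher on all 3, and BCL2 and HRK lower on all 3. The calls of BCL2A1 with TGFB on EGF (1.20 ± 0.43, adjusted p = 0.0209) and on OSM (-1.02 ± 0.40, adjusted p = 0.0372) were lost when low genes were kept (adjusted p = 0.0564 and 0.114) and without several single libraries, and that on OSM also with DESeq2 (adjusted p = 0.0696).

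**Figure D4:**
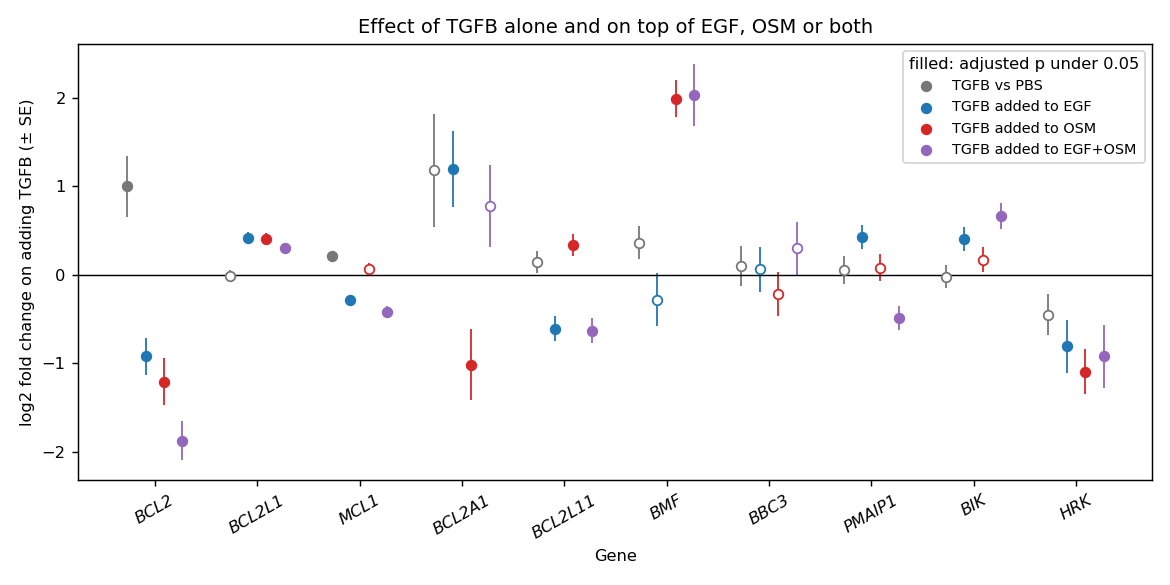
Log2 fold change on adding TGFB (± SE) for the 10 genes, alone (grey), on EGF (blue), on OSM (red) and on EGF+OSM (purple); filled points have an adjusted p under 0.05. BMF is near 2 on OSM and on EGF+OSM (1.99 and 2.03) and not called on EGF (-0.28) or alone (0.36), and BCL2 is positive alone (1.00) and negative on the other 3 backgrounds (-0.92 to -1.88).

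Between genes, levels can be compared only per length, as CPM per kilobase of summed exon length. On that scale MCL1 was the highest of the 10 in all 9 groups, from 69.5 in T0 to 172 in EGF+OSM, also with the longest transcript or the longest coding sequence as the length. BCL2L1 ranked 2 or 3 of the 10 (2 to 4 by coding length), at 17.9 in PBS and 23.5 in EGF. BMF went from rank 2 in PBS (21.4) to rank 6 in EGF (0.720, rank 7 by longest transcript) and rank 8 in EGF+OSM (0.236). BCL2L11 stood at 12.9 in PBS and 3.05 in EGF, rank 5 in both. By longest transcript it was rank 4 in both, and by coding length rank 3. BCL2 was 0.0163 in PBS and 0.366 in EGF. Exons of noncoding genes overlap those of BCL2L11 (MIR4435-2HG, 727 bases on the other strand), BCL2L1 (ABALON, 943 bases, other strand), BMF (BMF-AS1, 284 bases, other strand) and MCL1 (ADAMTSL4-AS1, 328 bases, same strand). Shorter overlaps were those of BBC3 with MIR3190 (80 bases, other strand) and MIR3191 (76 bases, same strand). MCL1 also overlaps the coding gene ADAMTSL4 (43 bases, other strand). Whether strand was used in counting is not given in the sources used here, so reads of the stretches on the other strand cannot be told apart. For overlaps on the same strand, strand could not separate the reads.

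The genes whose log2 levels followed the members most closely over the 27 libraries are given as a description, since the libraries fall into 9 groups and share treatments. Among 10559 genes with a mean of 5 CPM or more, BMF was closest to SCPEP1 (Pearson r = 0.98) and SSBP3 (0.98), BCL2L11 to PRKCH (0.98) and PUS10 (0.97), and BCL2 to RAD18 (0.99) and CEP78 (0.99). BBC3 was closest to ERBB3 and GATA3 (0.97 each), HRK to CTSD and EHF (0.98 each), BIK to MINDY1 and MEGF9 (0.96 each). PMAIP1 was closest to UBQLN1 and to TNFRSF10A, a receptor for the death ligand TRAIL (0.97 each), BCL2L1 to GRB2 and KLC2 (0.96 each), MCL1 to WAPL and CAPRIN1 (0.95 each), and BCL2A1 to PDE8A (0.91) and SLC7A2 (0.87).

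Of 13 further genes of the family, 12 could be tested. EGF raised 4 and lowered 6, OSM raised 6 and lowered 4, and TGFB raised 3 and lowered 3, with list medians of -0.18, 0.27 and 0.02. Over all genes tested, 34.9% rose and 38.6% fell with EGF, 33.5% and 29.8% with OSM and 19.9% and 15.8% with TGFB, the background for this list and those that follow. Of the pore-forming members, BAK1 stood at 45.5 ± 2.16 CPM in PBS and rose to 77.2 ± 2.59 CPM in EGF (0.76 ± 0.07), BAX rose from 32.4 ± 2.78 to 38.8 ± 1.09 CPM (0.26 ± 0.06) and BOK from 35.7 ± 2.16 to 47.3 ± 1.19 CPM (0.41 ± 0.07; SD, n = 3; adjusted p = 4.98e-10, 0.000286 and 5.88e-06). So while 5 of the 6 BH3-only genes fell with EGF, these 3 pore-forming genes rose, each by less than 2-fold. BCL2L12, an atypical member, rose most, from 4.30 ± 0.250 CPM to 22.7 ± 1.95 CPM with EGF (2.40 ± 0.12, adjusted p = 4.54e-15) and 17.2 ± 2.20 CPM with OSM (1.998 ± 0.12, adjusted p = 2.3e-13). The survival gene BCL2L2, which shares exons with a read-through gene, fell with EGF (-0.42 ± 0.05), OSM (-0.73 ± 0.05) and TGFB (-0.40 ± 0.05; adjusted p = 9.07e-08, 1.01e-11 and 1.64e-06). BNIP3 and BNIP3L, which mark mitochondria for removal in low oxygen, rose with OSM (1.31 ± 0.09 and 0.73 ± 0.13, adjusted p = 1.63e-12 and 6.83e-05).

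Around the family, 16 further target genes of p53, which also acts on BBC3 and PMAIP1, mostly fell with EGF and OSM. EGF lowered 14 and raised 1 (38.6% of all genes fell), OSM lowered 14 and raised 1 (29.8% fell), and TGFB raised 5 and lowered 3, with list medians of -0.89, -0.55 and 0.09 beside -0.07, 0.00 and -0.01 over all genes. GDF15 fell from 19.7 ± 3.07 CPM to 3.82 ± 0.718 CPM with EGF (-2.36 ± 0.26, adjusted p = 5.1e-08), and AEN, a nuclease, was the one that rose (1.24 ± 0.06, adjusted p = 8.35e-15). Of 13 factors known to act on genes of the family, EGF raised 2 and lowered 9, OSM raised 7 and lowered 6, and TGFB raised 3 and lowered 4, with medians of -0.63, 0.33 and -0.01. With EGF, E2F1 rose most (2.63 ± 0.18) and TP73 fell most (-2.52 ± 0.26; adjusted p = 1.02e-12 and 6.5e-09), and with OSM, FOXO3, a forkhead factor, fell most, from 277 ± 8.31 CPM to 98.9 ± 11.9 CPM (-1.49 ± 0.08, adjusted p = 8.46e-14). The forkhead genes FOXO1 and FOXO4, named here after their values were seen, fell with EGF as well (-2.13 ± 0.12 and -1.57 ± 0.12), as did FOXO3 (-1.86 ± 0.08; adjusted p = 3.34e-13, 7.69e-12 and 1.47e-15). JUN, a subunit of AP-1, rose most with OSM (1.45 ± 0.13) and TGFB (1.21 ± 0.13; adjusted p = 2.53e-09 and 1.52e-07).

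Downstream of the mitochondrion, 12 genes of the apoptosome and caspases were split: EGF raised 6 and lowered 3, OSM raised 6 and lowered 4, and TGFB raised 5 and lowered 3, with medians of 0.21, 0.00 and -0.02. APAF1, the scaffold of the apoptosome, rose from 13.1 ± 0.553 CPM to 25.1 ± 1.20 CPM with EGF (0.94 ± 0.09), while CASP9, the caspase it recruits, fell from 16.8 ± 1.13 CPM to 8.03 ± 1.07 CPM (-1.06 ± 0.09; adjusted p = 5.42e-10 and 9.07e-11). Of 6 inhibitor of apoptosis genes tested, EGF lowered 5 and raised 1, BIRC5 (survivin, a gene of dividing cells), from 4.94 ± 1.31 CPM to 116 ± 11.5 CPM (4.56 ± 0.26, adjusted p = 1.79e-12). OSM lowered 4 of the 6 and raised BIRC5, and TGFB lowered BIRC3 alone, with medians of -0.23, -0.29 and -0.14. Of 13 death receptor genes tested, EGF raised 5 and lowered 7, OSM raised 8 and lowered 3, and TGFB raised 3, with medians of -0.19, 0.25 and 0.05. TNFSF10, which encodes the death ligand TRAIL, went from 34.1 ± 1.47 CPM in PBS to 5.52 ± 1.47 CPM with EGF (-2.61 ± 0.23) and 84.1 ± 3.72 CPM with TGFB (1.30 ± 0.20; adjusted p = 2.38e-09 and 2.58e-05). Of 8 partners and ubiquitin enzymes of family proteins, EGF raised 2 and lowered 4, OSM raised 1 and lowered 4, and TGFB raised 1 and lowered 1, with medians of -0.29, -0.13 and 0.02. DYNLL1, the dynein light chain that binds BIM and is related to the one that binds BMF, rose with each ligand (0.65 ± 0.06, 0.34 ± 0.06 and 0.26 ± 0.06; adjusted p = 8.91e-10, 3.56e-05 and 0.00147).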

How the data were processed

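RNA-seq of 27 MCF10A libraries in 9 groups of 3 was analysed. The authors deposited 1 table of estimated counts per Ensembl gene, whole numbers that were not normalized; per the submitters' processing notes, kallisto 0.46.2, Trim Galore 0.4.3, cutadapt 1.10, FastQC 0.11.5 and R 3.5.0 were used, with the builds GRCh38.p5 and hg38 named, in no stated role. Per the labels' protocols the libraries were stranded and polyA-selected; whether strand was used in counting, and the annotation version, are not given in the sources used here. Rows with the same symbol were summed, and 7165 of the 40487 rows, which had no symbol, kept their Ensembl ID as their name, which gave 36536 genes. Genes passed edgeR's filterByExpr (10 counts at the median library, or 0.253 CPM, in 3 libraries), which left 15575 and all 10 members. One quasi-likelihood model (edgeR 4.0.16 in R 4.3.3, robust, TMM factors 0.867 to 1.12, prior count 0.125) over the 9 groups had 18 residual degrees of freedom and a biological coefficient of variation of 7.83%. It gave 21 comparisons, with p-values adjusted by Benjamini-Hochberg over all genes and called under 0.05. SE is the absolute log2 fold change over the square root of F. CPM levels are TMM-scaled, and errors of means are SD. Likeness used log2(CPM + 0.5). All members were described. From each pathway list, the called genes with the largest rise and fall per single ligand could be named, and any gene of the family list. The members and lists were chosen with earlier results of these data known. Alternatives were a replicate term, other scalings, no filter, DESeq2 1.42.0, rows as deposited, a 2-fold limit and leaving out each library in turn. The scripts were tested on simulated data.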

Additional observations from a re-analysis of the deposited data

Results flagged for a closer look

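Each ligand alone was compared with the same ligand added to 1 other. For 4 results the signs were opposite, each effect was called by edgeR's quasi-likelihood test, and the difference itself passed the test. TGFB raised BCL2 alone (1.00 ± 0.34, log2 ± SE) and lowered it on EGF (-0.92 ± 0.21), a difference of -1.92 ± 0.40 (adjusted p = 0.000738). On OSM it lowered BCL2 as well (-1.21 ± 0.27), a difference of -2.21 ± 0.44 (adjusted p = 0.00057). The call of TGFB alone on BCL2 was lost without PBS replicate 2 or any 1 TGFB library, whereas both differences kept their call under every alternative run. TGFB raised MCL1 alone (0.21 ± 0.06, adjusted p = 0.0111) and lowered it on EGF (-0.29 ± 0.06), a difference of -0.50 ± 0.09 (adjusted p = 0.000152). Here too the call of TGFB alone was lost, without PBS replicate 3 (adjusted p = 0.0635) or TGFB replicate 2 (adjusted p = 0.0561). The difference kept its call under every alternative run. EGF raised BCL2A1 alone (1.93 ± 0.58) and lowered it on OSM (-1.89 ± 0.43), a difference of -3.82 ± 0.72 (adjusted p = 0.000129), from groups with 1 to 40 counts a library. The OSM group helped bring BCL2A1 past the filter on low genes; with no filter the difference was -3.79 (adjusted p = 0.000293). Other called effects also changed sign between backgrounds, such as PMAIP1 with TGFB on EGF (0.43) and on EGF+OSM (-0.49) and BCL2 with OSM alone (2.56) and on EGF+TGFB (-0.71), and those differences were not tested. That BCL2 call on EGF+TGFB was lost without EGF+TGFB replicate 1 or 3 (adjusted p = 0.0511 and 0.11). It was also lost without EGF+OSM+TGFB replicate 2 (adjusted p = 0.114). With 3 libraries a group, single libraries were not tested as outliers.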

How the results depend on the processing

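Of 150 called results of single members in the 21 comparisons, 129 kept their call under every alternative, and none of the 150 reversed under any (DESeq2 gave 149 of them an adjusted p). Uncalled values near 0 changed sign when single libraries were left out: BCL2L1 with TGFB (-0.0749 to 0.0696; also above 0 without TGFB replicate 1), BCL2L11 with OSM (-0.246 to 0.0224), BMF with TGFB on EGF (-0.468 to 0.0383), BBC3 with TGFB on EGF (-0.0521 to 0.162) and on OSM (-0.4496 to 0.0162), PMAIP1 with TGFB (-0.0571 to 0.142) and from T0 to PBS (-0.172 to 0.131), and BIK with TGFB (-0.0724 to 0.0183). With upper-quartile scaling BCL2L1 with OSM+TGFB was at -0.0091. Requiring a 2-fold change left 3 members for OSM (20.1% of all genes) and 1 from T0 to PBS (5.52%). It left 0 for TGFB by edgeR (5.80% of all genes), 0 at an unadjusted p under 0.05 and 0 by DESeq2. For OSM+TGFB it left 5, for OSM on EGF 1, for TGFB on EGF 1 and for OSM on TGFB 4. For TGFB on EGF+OSM it left 2, and for the departure of EGF+TGFB 1. OSM on EGF+TGFB kept 0 by edgeR, 0 at an unadjusted p under 0.05 and 0 by DESeq2. Apart from OSM, TGFB and T0 to PBS, the share of all genes at 2-fold is not given here. Those counts are therefore not read as results. Fewer results can pass this stricter rule. Leaving out single libraries gave 0 to 2 called members for TGFB by edgeR. The 0 came without TGFB replicate 2, with 2 at an unadjusted p under 0.05, and DESeq2 on all libraries gave 2. The range was 3 to 6 for OSM on EGF (3 without EGF+OSM replicate 3). For OSM on EGF+TGFB it was 2 to 5 (2 without EGF+TGFB replicate 1). With all libraries, 35.6%, 34.9% and 26.4% of all genes were called in these comparisons. The shares without single libraries are not given here. The cause of these changes was not tested. Same-numbered libraries shared a deviation from their group means (r over 0.1) in 93 of 108 pairs, and all 27 correlated best with their own number, a hint from the data and not the design; with the replicate block, 4 members were called for TGFB (40.0% of all genes; BMF at 0.36, adjusted p = 0.0389, and HRK at -0.46, adjusted p = 0.00932, were added), 8 for OSM on EGF (40.3%) and 8 for OSM on EGF+TGFB (30.9%), and no called member was lost. CPM on total counts moved 27 of 90 group means by more than their SD; ranks per length in PBS moved for 2 of 10 members with the longest transcript and 7 of 10 with the coding length. With few counts in PBS, BCL2 and BCL2A1 are limited by depth.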
